A study of Mus musculus with 17 samples.

Results

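The 9 genes described here, Cspg4, Mcam, Nes, Rgs5, Abcc9, Kcnj8, Higd1b, Ndufa4l2 and Vtn, are commonly used as pericyte markers. They were taken as a fixed list from the 30406 genes that all 17 single-cell RNA libraries of the series shared. The list was made with earlier results of these data known, so counts over it are no independent support. The question was which of them were specific to mural cells and which were also found in Schwann, stromal or endothelial cells.

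Pericytes are the cells that wrap capillaries. With the smooth muscle cells of larger vessels they form the mural cells, which share the receptor PDGFR-β and answer to PDGF-B from the endothelium. Cspg4 encodes the NG2 proteoglycan, Mcam the adhesion molecule CD146 and Nes the intermediate filament nestin, and all 3 are known outside pericytes, in glial, endothelial or progenitor cells. Rgs5 encodes a protein that switches off G protein signalling, while Kcnj8 and Abcc9 encode the Kir6.1 pore and the SUR2 regulatory subunit of an ATP-sensitive potassium channel. Higd1b and Ndufa4l2 encode mitochondrial proteins related to the hypoxia-induced and respiratory chain proteins HIGD1A and NDUFA4. Vtn encodes the matrix and plasma protein vitronectin.

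Every mouse was 8 weeks old and carried PDGFRb-Cre with the Z/EG reporter, so that cells in which the PDGFRb promoter was or had been active were GFP+. SARATg mice overexpressed human SARA, the product of ZFYVE9, in those cells, and SARAWT mice did not. Skin received PBS (3 SARAWT libraries, 1 SARATg) or bleomycin under the skin at 20 mg/kg 3 times a week for 2 weeks (3 SARAWT, 1 SARATg). Kidneys came from mice given vehicle (3 SARAWT, 2 SARATg) or intraperitoneal aristolochic acid at 5 mg/kg 3 times a week for 3 weeks (3 SARAWT, 1 SARATg), and GFP+ cells were sorted after enzymatic digestion of the tissue. These schedules are those of the labels, whereas the study's methods describe daily bleomycin injections. The study states that in embryos the same promoter also works in inflammatory cells, whose descendants stay GFP+. The sorted cells were a mixture and not pericytes alone. Cells with proximal tubule markers, for example, made up 33.6% of the kidney cells kept, and why they were in the sort was not tested. The labels did not say whether each library came from 1 mouse, so p-values measure the spread between libraries.

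The skin libraries held 3355217 to 69765525 UMIs (unique transcript molecules) and the kidney libraries 28660151 to 137093834. After filtering, 28978 of 31972 skin barcodes and 58140 of 75562 kidney barcodes remained. Cell barcodes that also occurred in another skin library made up 55.5% of SARAWT PBS 2, 22.1% of SARAWT bleomycin 2, 17.6% of SARAWT bleomycin 1 and 7.38% of SARAWT PBS 1. The Zfyve9 level went against the genotype label in some libraries. It was 620 CPM, the UMIs of a gene among 1000000 UMIs, in the skin library labelled SARAWT PBS 3, against 7.64 to 25.8 in the other SARAWT skin libraries and 226 to 314 in the SARATg ones. A separate human ZFYVE9 entry was listed for 4 of the skin libraries, all labelled SARAWT, and there it had 845 CPM in PBS 1, 190 in PBS 2, 89.3 in bleomycin 1 and 115 in bleomycin 2, also against the label. Of the 6 skin libraries labelled SARAWT, bleomycin 3 alone had no such signal among the entries listed for it. In kidney the library labelled SARAWT aristolochic acid 1 had 165 CPM and the one labelled SARATg aristolochic acid 1 had 20.4, where the SARATg vehicle libraries had 88.9 and 89.6.

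Cells were assigned to a class by sets of other marker genes, none of them among the 9. The mural set included the muscle genes Myh11, Lmod1, Des, Tagln and Acta2, so the mural class held smooth muscle cells as well as pericytes. Skin yielded 220 mural, 2525 stromal, 311 Schwann and 253 endothelial cells, and kidney yielded 72 mural and 1825 endothelial cells. Mural cells made up 0.759% of the skin cells and 0.124% of the kidney cells. Of the 12 mural gate markers, 11 in skin (all but Des) and 12 in kidney were highest in the mural class, and Pdgfrb averaged 280 CPM in skin mural cells against 115 in stromal cells. In SARAWT bleomycin 1 alone it was lower in mural cells, 19.6 against 72.4 CPM. Pdgfrb was among the gate markers, and since these defined the class, their levels are no independent check of it. The gate was not pure after bleomycin. In the SARAWT PBS libraries 8.0%, 0% and 12% of mural-gated cells held a transcript of a muscle progenitor marker such as Pax7, against 46.2%, 11.8% and 56.3% after bleomycin, and 65.9% in the SARATg bleomycin library. Values are therefore also given for the 144 skin mural cells that held at least 2 of 7 restricted mural markers and none of 6 muscle markers, called mural cells with muscle set apart, a subset that was defined after the data were seen.

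The 9 genes lay on 6 chromosomes, and Kcnj8 and Abcc9 were neighbours, 16247 bases apart on the minus strand of chromosome 6. RefSeq promoter sequence of the mouse build GRCm38.p6 was at hand for 7 of the 9. The 250 bases before the RefSeq start of 4 genes are shown because these genes stand for the patterns described below: the neighbouring channel genes, the mostly mural member Rgs5 and the widely shared member Mcam. Each reads 5′ to 3′ on the gene's own strand, and capitals mark each CG pair. The GENCODE annotation used for the distance above starts Mcam and Abcc9 upstream of the RefSeq start, inside the stretch shown.
Rgs5, plus strand, chr1:169655251-169655500: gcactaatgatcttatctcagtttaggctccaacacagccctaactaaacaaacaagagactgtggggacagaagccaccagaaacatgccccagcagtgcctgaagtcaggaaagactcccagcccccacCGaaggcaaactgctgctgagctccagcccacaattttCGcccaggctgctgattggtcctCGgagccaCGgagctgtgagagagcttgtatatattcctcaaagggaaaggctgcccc
Kcnj8, minus strand, chr6:142571615-142571864: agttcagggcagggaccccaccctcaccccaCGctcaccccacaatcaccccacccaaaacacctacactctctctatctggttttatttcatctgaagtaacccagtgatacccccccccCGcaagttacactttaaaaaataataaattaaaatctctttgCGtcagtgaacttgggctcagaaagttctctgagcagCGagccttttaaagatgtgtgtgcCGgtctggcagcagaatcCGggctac
Abcc9, minus strand, chr6:142702275-142702524: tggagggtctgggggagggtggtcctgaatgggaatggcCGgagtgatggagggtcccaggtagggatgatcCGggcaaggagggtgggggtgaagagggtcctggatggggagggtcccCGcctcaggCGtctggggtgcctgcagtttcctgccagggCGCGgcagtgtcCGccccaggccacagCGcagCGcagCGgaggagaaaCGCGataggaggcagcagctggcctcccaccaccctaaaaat
Mcam, plus strand, chr9:44134408-44134657: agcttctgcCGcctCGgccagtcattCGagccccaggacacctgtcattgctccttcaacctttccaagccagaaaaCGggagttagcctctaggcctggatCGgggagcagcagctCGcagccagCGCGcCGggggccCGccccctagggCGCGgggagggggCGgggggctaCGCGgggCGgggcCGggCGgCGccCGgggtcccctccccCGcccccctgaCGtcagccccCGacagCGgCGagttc
Rgs5 held 4 CG pairs, Kcnj8 6, Vtn 9, Abcc9 12, Cspg4 12, Nes 15 and Mcam 25. Across 32851 RefSeq promoters of this length the median was 6, the quartiles were 2 and 16, and 92.1% held at least 1. CG reads the same on both strands. With 7 genes, these counts are a description only.

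In skin, Rgs5 and Higd1b were found mostly in mural cells, with a lower level in endothelial cells, Cspg4, Mcam and Nes were also high in Schwann cells, and Ndufa4l2 was also high in stromal cells and keratinocytes. The channel genes Abcc9 and Kcnj8 and the matrix gene Vtn were higher in mural cells than in most classes, but the more numerous stromal cells supplied more positive cells, for Abcc9 only with the SARATg PBS library included. Levels below are CPM of the summed UMIs of a class in a library, for sums of at least 10 cells.

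**Figure D1:**
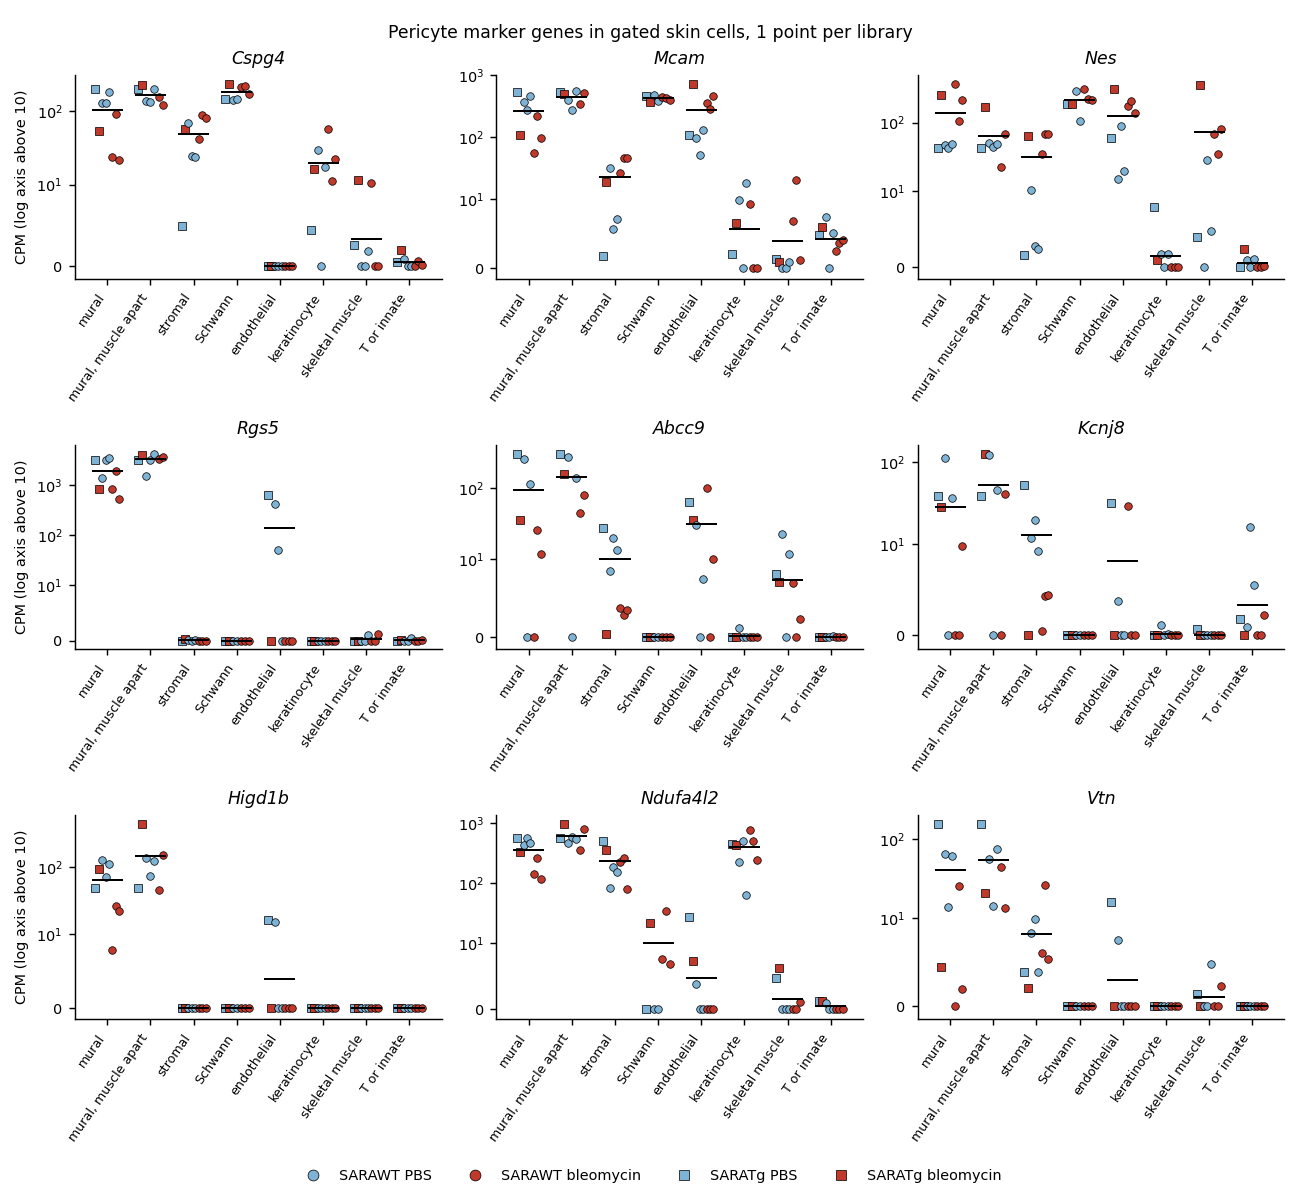
Level of each of the 9 genes in the cell classes of skin, in CPM on an axis that is linear up to 10 CPM and logarithmic above. Each point is the summed UMIs of 1 class in 1 library with at least 10 cells, and lines mark the mean. Rgs5 sits between 528 and 3434 CPM in mural cells and at 0 in every Schwann sum, whereas Mcam lies between 368 and 470 CPM in Schwann cells.

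Cspg4 was shared by mural, Schwann and stromal cells and had no UMI in endothelial cells. It was also found in keratinocytes, which exceeded mural cells in 2 of 8 libraries. Its lowest, median and highest levels over libraries were 21.6, 108.4 and 199 CPM in mural cells (103 ± 67.8, SD, n = 8), 140, 169 and 233 in Schwann cells (179 ± 39.2, n = 7) and 4.88, 49.0 and 86.7 in stromal cells (48.1 ± 29.3, n = 8). Every endothelial sum was 0. The mural and Schwann ranges overlapped, as did the mural and stromal ranges. The difference of mural from stromal cells did not pass (log2 fold change 1.12, SE 0.54, edgeR adjusted p = 0.12), nor did that from Schwann cells (-0.66, SE 0.54, edgeR adjusted p = 0.381). Mural cells did exceed stromal cells with at least 4 gate markers (1.57, edgeR adjusted p = 0.0275), with a gate margin of 2 (1.77, edgeR adjusted p = 0.00522), without SARAWT bleomycin 3 (1.51, edgeR adjusted p = 0.0326) and with muscle set apart (2.01, edgeR adjusted p = 1.79e-04). Schwann cells were higher than stromal cells in 7 of 7 libraries (log2 fold change of stromal over Schwann -1.78, edgeR adjusted p = 0.00699). Pooled over libraries, mural cells held 204 Cspg4 UMIs and endothelial cells 0, so mural cells were at least 40.4-fold higher (22.2-fold without SARAWT PBS 3), with 3 UMIs over the class as the floor.

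Mcam was shared by mural, Schwann and endothelial cells and was low in stromal cells. It ranged from 55.01 over a median of 245 to 522 CPM in mural cells (261 ± 173, n = 8), from 368 over 426 to 470 in Schwann cells (417 ± 39.7, n = 7) and from 50.4 over 204 to 716 in endothelial cells (274 ± 229, n = 8). Stromal cells had 1.74 to 46.2 CPM (23.0 ± 17.5, n = 8), below every mural sum. Mural cells exceeded stromal cells (log2 fold change 3.74, SE 0.60, edgeR adjusted p = 2.17e-05). The differences from Schwann cells (-0.30, SE 0.56, edgeR adjusted p = 0.73) and endothelial cells (0.33, SE 0.58, edgeR adjusted p = 0.725) did not pass.

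Nes was also found in mural, Schwann and endothelial cells. The mural levels were 42.4, 76.5 and 369 CPM (lowest, median and highest, 140 ± 124, n = 8), the Schwann levels 105, 211 and 306 (216 ± 67.2, n = 7), the endothelial levels 15.0, 114 and 311 (127 ± 102, n = 8) and the stromal levels 1.63, 22.7 and 68.7 (31.5 ± 31.0, n = 8). All 4 ranges overlapped with at least 1 other. Mural cells exceeded stromal cells (log2 fold change 2.49, SE 0.46, edgeR adjusted p = 1.17e-04), and the difference from Schwann cells (-0.72, SE 0.47, edgeR adjusted p = 0.258) did not pass. With muscle set apart, mural Nes averaged 63.0 ± 47.8 CPM (n = 7) and was below Schwann cells (log2 fold change -1.44, SE 0.56, edgeR adjusted p = 0.0411). Nes is expressed by muscle progenitors, and skeletal muscle cells of these libraries had 0 to 354 CPM.

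Rgs5 was mostly mural, with a lower level in some endothelial sums. Its mural levels were 528, 1683 and 3434 CPM (lowest, median and highest, 1932 ± 1204, n = 8), and the level was 3310 ± 873 (n = 7) with muscle set apart. Stromal sums lay between 0 and 0.354 CPM and all 7 Schwann sums were 0, so neither range touched the mural one. Pooled, mural cells held 3731 Rgs5 UMIs, stromal cells 7 and Schwann cells 0, and the mural level was at least 1661-fold higher than the Schwann level. In endothelial cells Rgs5 was 412 CPM in SARAWT PBS 1, 50.4 in SARAWT PBS 2, 636 in SARATg PBS and 0 in the other 5 libraries, and the mural level was higher (log2 fold change 5.04, SE 0.78, edgeR adjusted p = 2.93e-05). The highest endothelial sum lay above the lowest mural sum, so these ranges overlapped, and pooled over libraries the mural level was 9.52 times the endothelial one (95% interval 8.34 to 10.9, counting error only). This ratio was 5.12 without SARAWT PBS 3, 14.7 without SARAWT PBS 1 and 15.1 without SARATg PBS. Of the 3 endothelial sums with Rgs5, SARAWT PBS 1 and SARATg PBS also held the mural genes Acta2 (41.2 and 10.7 CPM) and Pdgfrb (22.5 and 16.0 CPM), and SARAWT PBS 2 held neither. The endothelial sum of SARAWT PBS 3 had 9.89 CPM of Acta2 and 7.42 of Pdgfrb with no Rgs5.

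Abcc9 and Kcnj8 were low and uneven in the whole mural class, and were far higher in its cells with few contractile genes, as given below. Abcc9 had 0, 30.7 and 309 CPM in mural cells (lowest, median and highest, 94.4 ± 123, n = 8), 0.354 to 27.7 in stromal cells, 0 to 102 in endothelial cells and 0 in every Schwann sum. The mural and stromal ranges overlapped, and the fit over libraries still called the mural level higher than the stromal one (log2 fold change 3.17, SE 0.68, edgeR adjusted p = 0.001). Mural Abcc9 was at least 81.5-fold higher than Schwann Abcc9 (53.2-fold without SARATg PBS), and its difference from endothelial cells did not pass (1.80, SE 0.81, edgeR adjusted p = 0.0946), although it did with muscle set apart (2.64, edgeR adjusted p = 0.00853) and without SARAWT bleomycin 1 (2.47, edgeR adjusted p = 0.0155). Kcnj8 had 0, 18.9 and 113 CPM in mural cells (28.2 ± 37.8, n = 8) and 0.0709, 6.84 and 53.0 in stromal cells, and it was filtered out of the test. Pooled, mural cells held 64 Kcnj8 UMIs and stromal cells 1073, a ratio of levels of 1.25 (95% interval 0.957 to 1.61, counting error only). Of the stromal UMIs, 912 came from the SARATg PBS library, and without it the ratio was 5.23 (95% interval 3.79 to 7.13). The ratio was below 1 without SARAWT PBS 1 (0.912) or SARATg bleomycin (0.885), with intervals that held 1. With the low count filter off, the fit over libraries called Kcnj8 higher in mural than in stromal cells (log2 fold change 1.69, SE 0.57, edgeR adjusted p = 0.0318). By library, mural Kcnj8 was higher than stromal Kcnj8 in 4 of 8 and lower in 4. The same fit called it higher in mural than in endothelial cells (3.17, SE 0.83, edgeR adjusted p = 0.00397). There the mural level was higher in 5 of 8 libraries and lower in 1. Pooled mural Kcnj8 was at least 28.5-fold higher than Schwann Kcnj8.

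In skin Higd1b was rare and mostly mural, while Ndufa4l2 was abundant in several classes. Higd1b had 7.86, 59.1 and 126 CPM in mural cells (lowest, median and highest, 62.7 ± 43.8, n = 8) and 0 in every stromal and Schwann sum. It was filtered out of the main test, and by pooled UMIs (156 in mural cells) it was at least 1092-fold higher than in stromal cells (660-fold without SARATg bleomycin) and at least 69.5-fold higher than in Schwann cells. Endothelial cells held 7 Higd1b UMIs, in the SARAWT PBS 1 and SARATg PBS libraries, and the pooled mural level was 13.3 times theirs (95% interval 6.28 to 33.5). This ratio was 8.11 without SARAWT PBS 3, 20.7 without SARATg PBS and 23.5 without SARAWT PBS 1. Ndufa4l2 had 116, 375 and 565 CPM in mural cells (357 ± 176, n = 8), 80.5, 204 and 502 in stromal cells (230 ± 142) and 62.7, 439 and 768 in keratinocytes (396 ± 216), and these 3 ranges overlapped. The mural over stromal difference did not pass (log2 fold change 0.64, SE 0.36, edgeR adjusted p = 0.18) but did with muscle set apart (1.47, edgeR adjusted p = 0.00157). It was higher than in Schwann cells (5.17, SE 0.52, edgeR adjusted p = 1.3e-08) and endothelial cells (6.31, SE 0.62, edgeR adjusted p = 7.5e-09), where the highest sums were 33.8 and 26.7 CPM.

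Vtn was low in the whole mural class and in stromal and endothelial cells. It had 0, 20.1 and 157 CPM in mural cells (lowest, median and highest, 41.4 ± 53.3, n = 8), 2.06, 5.74 and 26.3 in stromal cells, 0 to 16.0 in endothelial cells and 0 in every Schwann sum. The mural and stromal ranges overlapped. Pooled, the mural level was 6.51 times the stromal one (95% interval 4.95 to 8.46) and 3.59 times (2.50 to 5.05) without SARATg PBS. It was at least 33.4-fold above the Schwann one (18.9-fold without SARATg PBS).

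Kcnj8, Higd1b and Vtn fell under the filter on low counts. Of the 6 members that passed it, 4 were higher in mural than in stromal cells (Mcam, Nes, Rgs5 and Abcc9), where 14.8% of all 6179 genes were called in that direction. Against Schwann cells 3 were higher (Rgs5, Abcc9 and Ndufa4l2, all genes 17.9%), and against endothelial cells 3 (Cspg4, Rgs5 and Ndufa4l2, all genes 18.9%). The median log2 fold change of the tested members was 2.83, 2.44 and 3.42 in these comparisons, against -0.04, 0.04 and 0.10 for all genes. Without the filter the counts were 7, 6 and 7 of the 9, against 5.2%, 7.05% and 8.07% of all genes. When muscle was set apart, 7 tested members were higher than in stromal cells (18.7% of all genes), 4 were higher and Nes was lower than in Schwann cells (18.6% of all genes were higher and 22.7% lower), and 6 were higher than in endothelial cells (17.4%), among them Mcam (log2 fold change 1.09, SE 0.43, edgeR adjusted p = 0.0456). In a bulk sum of this kind, fewer expressing cells and less RNA per cell cannot be told apart, so shares of positive cells follow.

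A cell was called positive when at least 1 UMI was seen after every cell had been thinned to 1000 UMIs, which left out 19 shallower mural cells. Rgs5 was found in 42.2% ± 20.7 of mural cells (SD, n = 7 libraries, unthinned 56.4%), in 0 of 296 Schwann cells, which allows a share of up to 1.01%, and in 0 of 2370 stromal cells, which allows up to 0.127%. These limits apply to cells with a UMI after thinning and not to cells that express the gene. Mcam was found in 35.2% ± 8.11 of Schwann cells, 19.9% ± 10.9 of mural cells, 18.8% ± 15.9 of endothelial cells and 1.23% ± 1.21 of stromal cells. T or innate lymphoid cells, which should lack Rgs5 and Cspg4, had a median of 6611 UMIs against 8448 in mural cells and gave a background of 0.0407% for Rgs5 and 0.12% for Cspg4. Their share for Mcam, which some T cells are known to express, was 0.42%. Cspg4 was in 15.2% ± 10.4 of mural, 13.5% ± 3.57 of Schwann and 4.26% ± 1.73 of stromal cells, and Nes in 7.31% ± 5.65, 15.8% ± 5.52 and 1.86% ± 1.96. Ndufa4l2 was in 24.0% ± 7.18 of mural cells, 21.3% ± 10.7 of keratinocytes and 13.5% ± 9.72 of stromal cells. In the mural cells with muscle set apart (n = 6 libraries) the shares were 65.0% ± 10.6 for Rgs5, 33.8% ± 10.5 for Mcam, 33.5% ± 7.91 for Ndufa4l2, 20.2% ± 11.5 for Cspg4 and 5.42% ± 3.5 for Nes.

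Read the other way, a positive cell was usually a mural cell for only Rgs5 and Higd1b among the 9. Mural cells made up 0.765% of the 26289 skin cells thinned to 1000 UMIs, yet they supplied 80.6% of the 108 Rgs5-positive and 88.9% of the 18 Higd1b-positive cells. They supplied 22.2% of 54 Abcc9-positive, 18.0% of 50 Vtn-positive, 12.9% of 334 Mcam-positive, 11.6% of 69 Kcnj8-positive, 10.98% of 264 Cspg4-positive, 7.58% of 211 Nes-positive and 6.23% of 755 Ndufa4l2-positive cells. Stromal cells were the main source for Kcnj8 (69.6%), Ndufa4l2 (62.4%), Vtn (54.0%), Abcc9 (46.3%) and Cspg4 (31.1%). These shares rest in part on the SARATg PBS library, and without it the stromal share was 33.3% of 27 Kcnj8-positive cells, 45.9% of 333 Ndufa4l2-positive cells and 7 of 28 Abcc9-positive cells, of which 9 were mural (32.1%). Skeletal muscle cells held 10 of the 54 Abcc9-positive cells (18.5%), and their share without that library is not given. Schwann cells led for Mcam (30.2%), and ungated cells for Nes (32.7%), with Schwann cells next (22.7%).

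**Figure D2:**
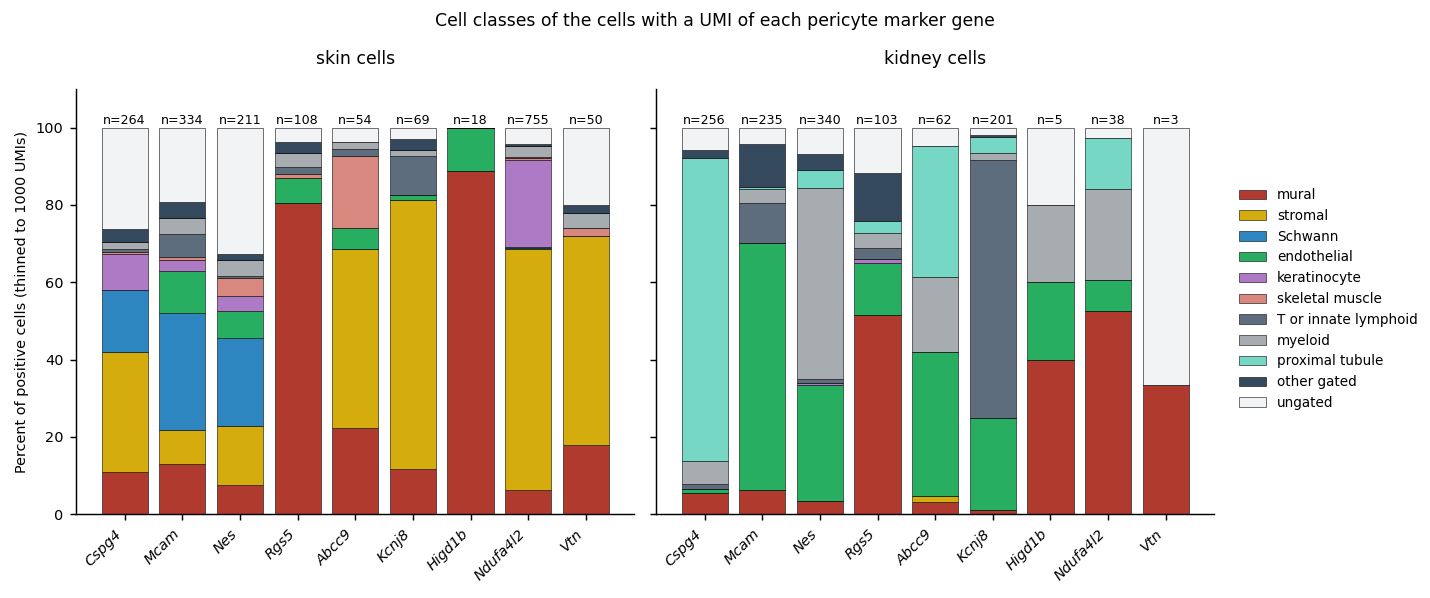
For each gene, the percent of all positive cells of a tissue (cells with at least 1 UMI after thinning to 1000 UMIs) that each cell class supplied. In skin the mural part is 80.6% for Rgs5 and 88.9% for Higd1b and at most 22.2% for the other 7 genes.

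The Schwann cells carried mainly the surface and cytoskeletal members. Of 302 Schwann cells, 53.0% held at least 1 of Cspg4, Mcam and Nes and 0.662% held any of the other 6, whereas of 201 mural cells 39.3% and 52.7% did. When muscle was set apart, the mural shares were 51.9% and 77.9% of 131 cells. At least 2 members were detected together in 42.3% of mural cells, 9.60% of Schwann cells, 5.51% of endothelial cells and 2.70% of stromal cells. At least 3 were detected in 14.4% of mural cells, 1.27% of endothelial cells, 0.993% of Schwann cells and 0.0422% of stromal cells. Col1a1, a fibroblast collagen gene, lay at 1035 to 6294 CPM in the Schwann sums and at 5923 to 88128 in the stromal sums, and its part in the Schwann values was not tested.

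The mural cells were not uniform for these genes. Mural cells with muscle set apart were split by whether they held at least 2 of the smooth muscle contractile genes Myh11, Cnn1, Lmod1 and Actg2 (110 cells) or at most 1 (34 cells). Myh11 and Lmod1 were also mural gate markers and were among the 7 restricted markers, of which each cell had to hold at least 2. A cell with at most 1 contractile gene thus had to hold at least 1 restricted marker outside the split genes. The part of this rule in the contrast was not tested. The pooled level was lower in the cells with contractile genes for Abcc9 (32.6 against 1095 CPM), Kcnj8 (6.74 against 394), Vtn (24.7 against 365), Rgs5 (2934 against 7949), Higd1b (108 against 401) and Nes (53.9 against 150). It was closer to equal for Cspg4 (181 against 200) and Ndufa4l2 (603 against 694), and higher for Mcam (513 against 315). The exact Poisson 95% intervals of the pair did not overlap for these 6 lower genes, among them Abcc9 (21.8 to 46.8 and 928 to 1282), Kcnj8 (2.47 to 14.7 and 296 to 512), Vtn (15.5 to 37.4 and 272 to 480) and Nes (39.7 to 71.5 and 93.0 to 230), nor for Mcam (467 to 563 and 229 to 423). They overlapped for Cspg4 and Ndufa4l2, and they cover counting error only. The intervals of Nes overlapped without SARAWT PBS 1 or SARATg bleomycin (44.7 against 97.4 CPM without the latter), and those of Mcam without SARAWT PBS 3 or SARATg bleomycin. The pooled Vtn level of the cells with at most 1 contractile gene was 157 CPM without SARATg PBS, and that of the contractile cells was 6.90 without SARAWT PBS 3. Higd1b was 86.8 against 214 CPM without SARATg bleomycin. The median depth was 8155.5 UMIs in the contractile cells and 2810.5 in the others, which moved with the split, and its part was not tested.

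The split could be made in 3 libraries with at least 5 cells on each side. Abcc9 was 53.6, 16.2 and 19.3 CPM in the contractile cells of SARAWT PBS 1, SARATg PBS and SARAWT PBS 3, and 1140, 2456 and 1932 in the other mural cells of the same libraries. Kcnj8 was 0, 0 and 6.44 CPM against 587, 317 and 613, and Rgs5 was 938, 1784 and 3502 against 3697, 14025 and 14325. For these 3 genes the 2 sides did not overlap. Higd1b and Nes were not uniform. Higd1b had 116, 53.9 and 99.8 CPM against 207, 0 and 471, and Nes had 8.93, 37.7 and 51.5 against 207, 79.2 and 0. The split is a description, since the cells of a library are not replicates.

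**Figure D3:**
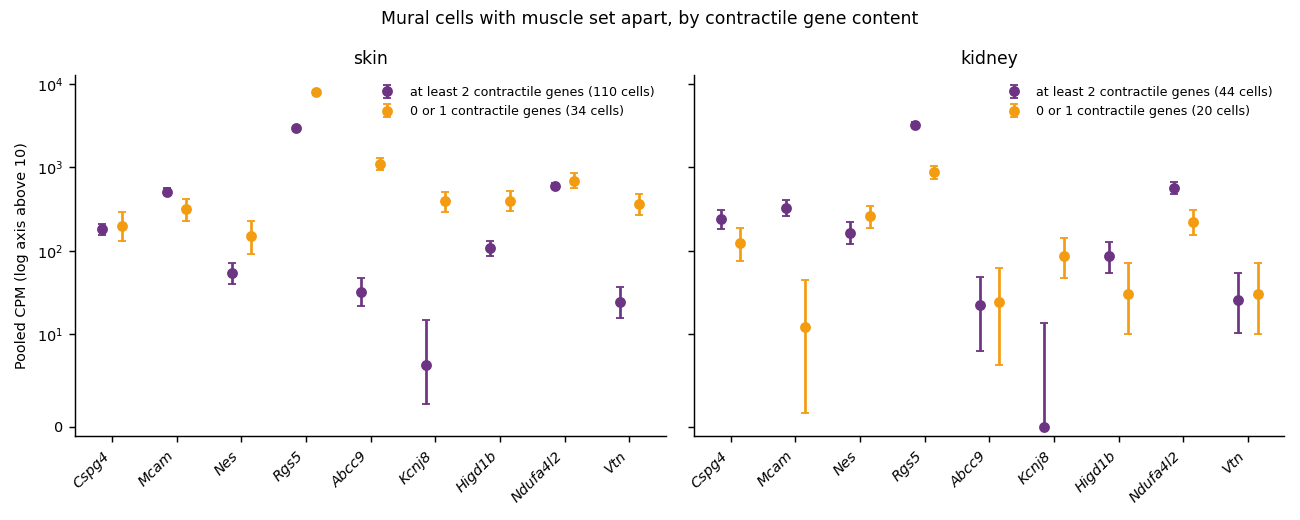
Pooled level of the 9 genes, in CPM on an axis that is linear up to 10 CPM and logarithmic above, in mural cells with muscle set apart that held at least 2 of 4 contractile genes (110 cells in skin, 44 in kidney) and in those with at most 1 (34 and 20 cells), with exact Poisson 95% intervals. In skin Abcc9, Kcnj8 and Vtn show the widest gaps, and the intervals of Cspg4 and Ndufa4l2 overlap.

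Between classes other than mural cells, 13 of 18 tests of members passed in skin. Stromal cells exceeded Schwann cells for Abcc9 and Ndufa4l2 (21.0% of all genes were higher in stromal cells) and were lower for Cspg4, Mcam and Nes (16.1%). Stromal cells exceeded endothelial cells for Cspg4 and Ndufa4l2 (23.9%) and were lower for Mcam, Nes and Rgs5 (18.2%). Schwann cells exceeded endothelial cells for Cspg4 (19.5%) and were lower for Rgs5 and Abcc9 (17.7%). The Nes difference of Schwann over endothelial cells, 1.17 on the log2 scale, did not pass (SE 0.50, edgeR adjusted p = 0.0661).

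Of 18 other genes named for pericytes, 13 were tested in skin. Between mural and stromal cells 7 were higher in mural cells and 1 was lower, where 14.8% of all genes were higher and 18.3% lower. The 5 largest were Gja4, a gap junction gene (log2 fold change 7.02), Tbx2, a transcription factor (6.55), Rgs4, a relative of Rgs5 (5.74), Pde5a, a cyclic GMP phosphodiesterase (3.31), and Gjc1, another gap junction gene (2.11). Cd248, or endosialin, was lower in mural than in stromal cells (-2.85, SE 0.32, edgeR adjusted p = 1.02e-07). Against Schwann cells 10 were higher and 1 lower (all genes 17.9% and 15.2%), and against endothelial cells 8 and 1 (all genes 18.9% and 15.4%). The median log2 fold change over the tested genes was 1.56, 4.12 and 2.57. These genes were listed with earlier results of the series known and are no independent support.

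Relatives of the members were read for comparison. Rgs4 had 294 ± 216 CPM in skin mural cells (n = 8) and 4.18 ± 3.08 in stromal cells, while Rgs2 had 91.2 ± 67.2 and 49.99 ± 23.1 and its mural over stromal difference did not pass (log2 fold change 0.52, SE 0.36, edgeR adjusted p = 0.282), although it did with muscle set apart (1.26, SE 0.32, edgeR adjusted p = 0.00192). Rgs2 was higher in mural than in Schwann cells (1.62, SE 0.43, edgeR adjusted p = 0.00477) and endothelial cells (1.44, SE 0.47, edgeR adjusted p = 0.0178). Ndufa4, the respiratory chain relative of Ndufa4l2, had 360 ± 155 CPM in mural, 339 ± 115 in stromal, 379 ± 66.1 in Schwann (n = 7) and 371 ± 139 in endothelial cells, and none of its differences from mural cells passed. With muscle set apart it was lower in mural than in stromal (-0.69, edgeR adjusted p = 0.0134), Schwann (-0.68, edgeR adjusted p = 0.0223) and endothelial cells (-0.63, edgeR adjusted p = 0.0316). Higd1a, the relative of Higd1b, lay at 134 ± 35.7 and 171 ± 109 CPM in mural and stromal cells (-0.33, SE 0.24, edgeR adjusted p = 0.319). Kcnj11 and Abcc8, which encode the other pore and regulatory subunit of ATP-sensitive potassium channels, had 1 and 0 UMIs in all skin mural cells.

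The genes whose levels followed each member most closely over 80 class sums of 12 skin classes were partly other members. Rgs5 went with Higd1b (Pearson r 0.925), Gucy1a1 (0.914) and Myh11 (0.903), and Abcc9 went with Kcnj8 (0.824) and Vtn (0.779). Mcam went with Nr2f2 (0.913), Cspg4 with Arhgef17 (0.876), Nes with Col18a1 (0.837) and Ndufa4l2 with Hoxc8 (0.879). In 90 kidney sums of 13 classes, Ndufa4l2 went with Gucy1b1 (0.983) and Rgs5 with Pln (0.906) and Ndufa4l2 (0.882). The sums of a library share its depth and cells, and some of these genes, such as Myh11, were gate markers, so the values describe likeness only.

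Bleomycin moved 5 of the 6 tested members in SARAWT mural cells, where 14.2% of 3312 genes were called in either direction (6.55% higher and 7.67% lower). Cspg4 had 126, 127 and 182 CPM in the 3 PBS libraries and 23.6, 90.9 and 21.6 after bleomycin (log2 fold change -2.05, SE 0.53, edgeR adjusted p = 0.0299). Mcam had 364, 268 and 450 CPM against 55.01, 221 and 96.2 (-1.64, SE 0.47, edgeR adjusted p = 0.0427). Higd1b had 126, 70.7 and 110 CPM against 7.86, 26.0 and 21.6 (-2.48, SE 0.47, edgeR adjusted p = 0.0127). In each of these genes every bleomycin library lay below every PBS library. Ndufa4l2 also fell (-1.46, SE 0.39, edgeR adjusted p = 0.0325), from 424, 565 and 467 CPM to 141, 260 and 116. Nes rose from 46.4, 42.4 and 49.1 CPM to 369, 104 and 212 (2.45, SE 0.51, edgeR adjusted p = 0.0165). Rgs5 had 1405, 3180 and 3434 CPM against 857, 1961 and 528, groups that overlapped, and did not pass (-1.20, SE 0.52, edgeR adjusted p = 0.137), although it did without bleomycin 2 (-1.84, edgeR adjusted p = 0.00855).

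These calls moved with the muscle transcripts in the gate. Pax7 had 6.63, 0 and 9.82 CPM in the PBS libraries and 74.7, 38.96 and 54.9 after bleomycin, and Myh11 had 4764, 3151 and 2577 against 130, 1338 and 314. With muscle set apart, SARAWT bleomycin 1 kept too few cells to be summed, and the comparison rested on 3 PBS and 2 bleomycin libraries. None of 6 members then passed in edgeR, where 0.144% of 1388 genes were called and 15.5% had an unadjusted p under 0.05. Rgs5 was then 1515, 3268 and 4198 CPM against 3336 and 3606, Mcam 393, 276 and 540 against 334 and 511, and Nes 50.01, 43.6 and 48.2 against 22.2 and 67.3, with overlapping groups in all 3. No member was called in the full gate without PBS 3, PBS 1 or bleomycin 1. The folds of the members called before kept their direction, with Higd1b at -2.40, -2.45 and -2.17 and Nes at 2.53, 2.34 and 1.89 in that order. Since 5 of the 6 libraries had a Zfyve9 or ZFYVE9 level at odds with their label, no SARAWT bleomycin comparison could be made with all 5 left out.

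The SARATg skin had 1 library a group and allowed no test. From PBS to bleomycin, mural Rgs5 was 3252 CPM (exact Poisson 95% interval 3013 to 3505) and 844 (776 to 916), and Cspg4 was 199 (144 to 269) and 53.0 (37.1 to 73.4). Nes was 42.7 (19.5 to 81.1) and 252 (216 to 293). With muscle set apart these pairs were 3252 and 3994 CPM, 199 and 223, and 42.7 and 167, from 28 and 13 cells.

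**Figure D4:**
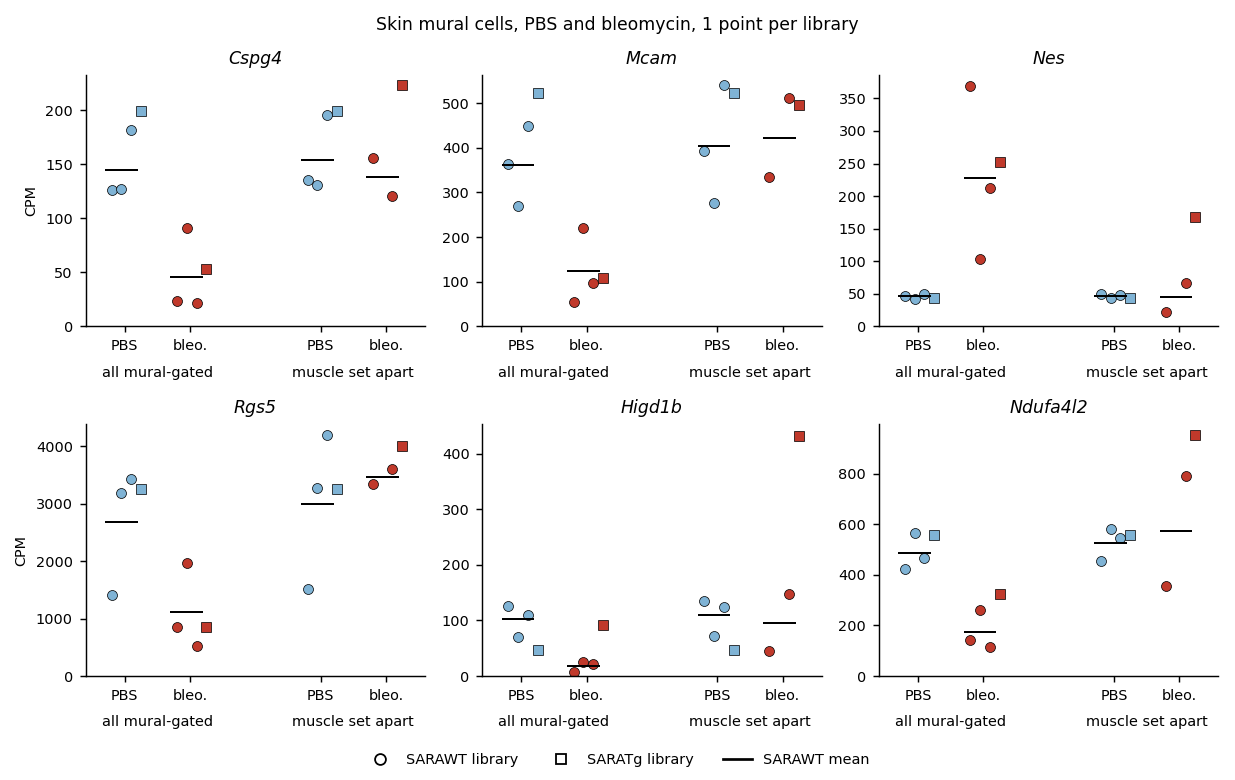
Level of the 6 tested genes in skin mural cells, 1 point per library, in CPM, for PBS and bleomycin, in the full mural gate and with muscle set apart. In the full gate Cspg4, Mcam, Higd1b and Ndufa4l2 are lower and Nes is higher in all 3 SARAWT bleomycin libraries than in all 3 PBS libraries, and with muscle set apart the groups overlap for Mcam, Nes and Rgs5. Circles are SARAWT and squares SARATg libraries, and lines mark the SARAWT mean.

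In stromal cells Nes rose after bleomycin, as 1 member of 7 tested against 3.84% of 10288 genes. It had 10.4, 2.83 and 2.37 CPM in SARAWT PBS libraries and 35.0, 67.5 and 68.7 in SARAWT bleomycin libraries, without overlap (log2 fold change 3.24, SE 0.51, edgeR adjusted p = 0.0237). The call was lost with shared barcodes removed (2.81, edgeR adjusted p = 0.221) and without PBS 2 (3.12, edgeR adjusted p = 0.0778), bleomycin 1 (3.49, edgeR adjusted p = 0.075) or bleomycin 3 (3.11, edgeR adjusted p = 0.071). The SARATg pair had 1.63 CPM (exact Poisson 95% interval 1.08 to 2.35) and 63.2 (59.2 to 67.5). The channel genes went the other way without passing in the main edgeR fit. Abcc9 had 8.51, 19.8 and 13.4 CPM against 3.74, 2.84 and 3.43 (-1.95, SE 0.45, edgeR adjusted p = 0.0534), and Kcnj8 had 11.9, 19.8 and 9.27 against 0.467, 4.26 and 4.42 (-2.12, SE 0.62, edgeR adjusted p = 0.0879). Neither pair of groups overlapped, and DESeq2 called both genes (DESeq2 adjusted p = 0.0209 and 0.0248). So did edgeR with the low count filter off (edgeR adjusted p = 0.0228 and 0.0305). Abcc9 was also called with a gate margin of 2 (edgeR adjusted p = 0.0463) and without PBS 1 (edgeR adjusted p = 0.0404).

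In Schwann cells none of 3 tested members passed in edgeR, where 1.17% of 5320 genes did and 19.0% had an unadjusted p under 0.05. In endothelial cells none of 2 passed (0.198% of 2529 genes, unadjusted 13.5%), although Mcam had 97.4, 50.4 and 131 CPM after PBS and 350, 278 and 463 after bleomycin (1.92, SE 0.41, edgeR adjusted p = 0.0739). Endothelial Nes had 15.0, 88.3 and 19.8 CPM against 175, 208 and 139 (2.56, SE 0.57, edgeR adjusted p = 0.0739). In both genes every bleomycin library lay above every PBS library, and DESeq2 called both (DESeq2 adjusted p = 0.00924 and 0.0143). So did edgeR with the low count filter off (edgeR adjusted p = 0.0152 and 0.00282). Mcam was also called with at least 4 gate markers (edgeR adjusted p = 0.0394), and Nes without PBS 2 (edgeR adjusted p = 0.0473).

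In kidney Rgs5, Cspg4, Ndufa4l2 and Nes were higher in mural than in endothelial cells. Rgs5 was 3224, 1131, 1821 and 2893 CPM in the 4 libraries with at least 10 mural cells (SARATg vehicle 2, SARAWT aristolochic acid 1, SARAWT vehicle 2 and 3), against 1.46 to 105 in 8 endothelial sums, without overlap (log2 fold change 6.50, SE 0.40, edgeR adjusted p = 6.01e-10). Cspg4 was 198, 115, 157 and 181 CPM in the same order against 0 to 3.29 (7.83, SE 0.66, edgeR adjusted p = 3.51e-08). Ndufa4l2 was 707, 260, 354 and 241 CPM against 0 to 9.28 (6.08, SE 0.39, edgeR adjusted p = 8.36e-10), and no sum of a kidney class other than the mural one exceeded 13.6 CPM.

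Nes was 264, 321, 78.6 and 181 CPM against 53.0 to 157 in endothelial cells, and it passed despite overlapping groups (1.20, SE 0.37, edgeR adjusted p = 0.0222). The Nes call was lost without SARAWT aristolochic acid 1, whose Zfyve9 level was at odds with its label (0.97, edgeR adjusted p = 0.123), and without SARAWT vehicle 3 (1.28, edgeR adjusted p = 0.0715) or SARATg vehicle 2 (0.76, edgeR adjusted p = 0.149). It was also lost with DESeq2 (1.15, DESeq2 adjusted p = 0.136) and with at least 4 gate markers (0.99, edgeR adjusted p = 0.0575). Mcam was 292, 61.1, 118 and 271 CPM against 26.5 to 169 and did not pass (0.87, SE 0.42, edgeR adjusted p = 0.154). Kcnj8 leaned to endothelial cells, with 9.43, 91.7, 13.1 and 0 CPM in mural and 0 to 150 in endothelial sums (-1.44, SE 0.53, edgeR adjusted p = 0.0558). Without SARAWT aristolochic acid 1, Mcam passed (1.58, edgeR adjusted p = 7.56e-04) and Kcnj8 was called lower in mural cells (-2.74, edgeR adjusted p = 0.0371), as it also was without SARAWT vehicle 2 (-1.55, edgeR adjusted p = 0.0322). In all, 4 of 6 tested members were higher in mural cells, where 8.92% of 7009 genes were. When muscle was set apart, 4 were higher (7.39% of all genes), with Mcam called and Nes not, and Kcnj8 was lower (-2.72, SE 0.89, edgeR adjusted p = 0.016, with 13.1% of all genes lower). Vtn had 45.8 CPM in the mural sum of SARAWT aristolochic acid 1, 66.0 in that of SARATg vehicle 2 and 0 in both SARAWT vehicle ones. With 13 mural UMIs and 0 endothelial UMIs pooled, it was at least 83.9-fold higher in mural cells, or 44.4-fold without SARATg vehicle 2 and 52.7-fold without SARATg vehicle 1. Higd1b and Abcc9 fell under the filter on low counts. With it off, Higd1b was higher in mural than in endothelial cells (3.82, SE 0.98, edgeR adjusted p = 0.00127). Abcc9 did not pass (0.37, SE 0.72, edgeR adjusted p = 0.962), and it was higher in mural cells in 2 of 4 libraries. Kidney stromal and Schwann cells were too few to compare.

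**Figure D5:**
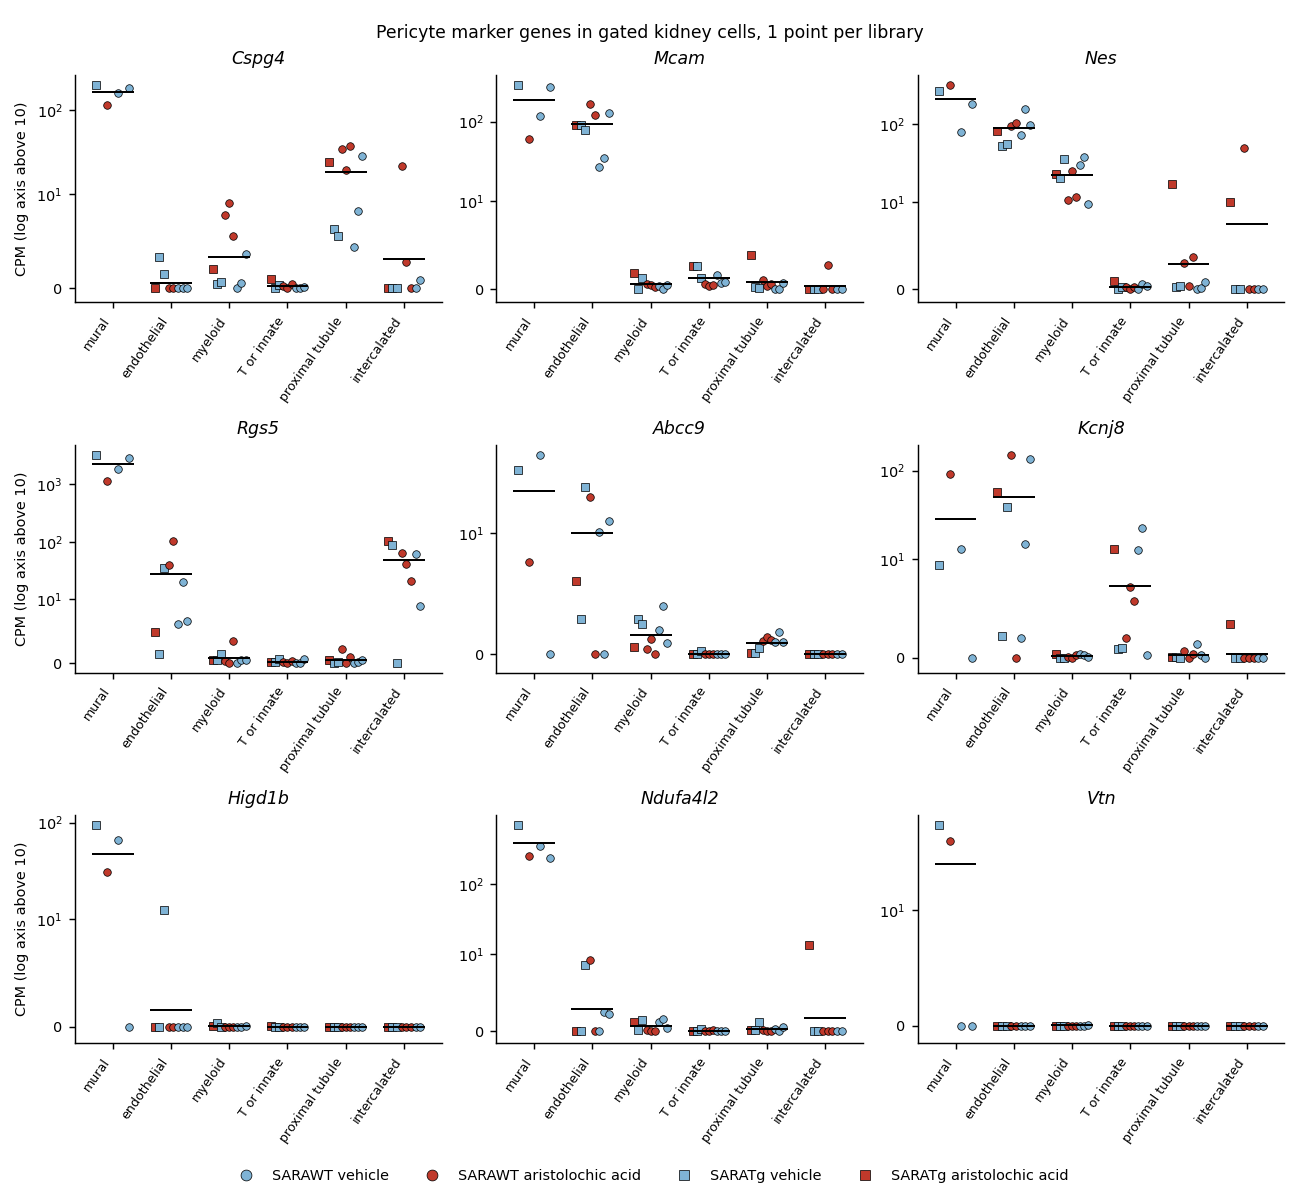
Level of each of the 9 genes in the cell classes of kidney, in CPM on an axis that is linear up to 10 CPM and logarithmic above. Each point is the summed UMIs of 1 class in 1 library with at least 10 cells, and lines mark the mean. Rgs5 lies between 1131 and 3224 CPM in mural cells and between 1.46 and 105 in endothelial cells.

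Most kidney cells positive for a member lay outside the mural class, which was 0.126% of 57292 thinned cells. Proximal tubule cells supplied 78.5% of 256 Cspg4-positive cells at a low level (4.39 to 37.1 CPM), endothelial cells 63.8% of 235 Mcam-positive cells, myeloid cells 49.4% of 340 Nes-positive cells and T or innate lymphoid cells 66.7% of 201 Kcnj8-positive cells. Within its class, Nes was found more often in podocytes, in 10 of only 18 cells, than in mural cells, in 12 of 72. Mural cells supplied 51.5% of 103 Rgs5-positive and 52.6% of 38 Ndufa4l2-positive cells. Of only 5 Higd1b-positive kidney cells, 2 were mural, 1 was endothelial, 1 myeloid and 1 ungated. Intercalated cells of the collecting duct also held Rgs5, at a median of 51.9 and a maximum of 102 CPM.

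In kidney mural cells pooled over libraries, the contractile split of Rgs5 ran the other way. It was 3254 CPM (exact Poisson 95% interval 3042 to 3478) in 44 cells with at least 2 contractile genes and 874 (736 to 1030) in 20 cells with at most 1. Kcnj8 had 0 UMIs in the first and 14 in the second, of which 2 remained without SARAWT aristolochic acid 1. Abcc9 had 22.4 and 24.6 CPM. Mcam was 328 CPM (263 to 405) and 12.3 (1.49 to 44.5), the second from only 2 UMIs. Each side pooled 8 libraries of both treatments, and no kidney library had at least 5 cells on each side. The kidney gaps could therefore not be told apart from differences between libraries or treatments. A test of the mural over endothelial difference in skin against kidney, added after the data were seen, passed for none of the 9 members in edgeR (2.98% of 5763 genes passed, 13.8% unadjusted). Kcnj8 came nearest (interaction 4.02, SE 1.17, unadjusted p = 0.00272, edgeR adjusted p = 0.0757).

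Aristolochic acid could be compared in SARAWT endothelial cells, from 3 vehicle and 2 treated libraries. None of 4 tested members passed in edgeR, as was so for all 6972 genes (0%, and 3.13% at an unadjusted p under 0.05). Endothelial Rgs5 was 6.11, 20.0 and 6.51 CPM after vehicle and 40.2 and 105 after aristolochic acid, without overlap, a log2 fold change of 2.49 (SE 0.70, edgeR adjusted p = 0.9996). Rgs5 was called with the low count filter off (2.45, edgeR adjusted p = 0.0248), and Mcam with the replicate block (2.38, edgeR adjusted p = 0.0455) or without SARAWT vehicle 3 (2.45, edgeR adjusted p = 0.0407). The treated library with 40.2 CPM was the one whose Zfyve9 level was at odds with its label.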

How the data were processed

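The authors deposited 1 matrix of raw UMI counts per library, made with Cell Ranger (3.0.2 in the processing notes and 3.0.2, 3.1.0 or 4.0.0 in the file headers) on mm10 from 10x 3′ v3 libraries. No deposited column was left out as belonging to no sample (0 columns). A cell was kept if it had 200 genes or more and no more than 20% of its UMIs from mitochondrial genes, and those scored highest as doublets by Scrublet in scanpy 1.11.5 were removed at 0.8% per 1000 cells. A cell joined the 1 of 18 marker classes with the highest mean log value, given at least 3 detected markers and 1.5 times the next class. UMIs were summed per library and class (at least 10 cells) and tested with edgeR 4.0.16 (quasi-likelihood, TMM, filterByExpr, Benjamini-Hochberg threshold 0.05), with the library as a block between classes and SARAWT libraries only between treatments. The members and lists were chosen with earlier results of these data known. The 9 members were all described, other pericyte genes by count and up to 5 per direction, and likeness by the 3 highest correlations of log2(CPM + 10) among genes reaching 20 CPM in a class. A fold against 0 UMIs used 3 UMIs over the class, and 95% intervals cover counting error only. The SE given with an edgeR fold is its absolute log2 fold change divided by the square root of its F statistic. The number of mural cells (220 in skin and 72 in kidney) limits the precision of each mural value.

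Same-numbered PBS and bleomycin libraries deviated together in stromal cells (r 0.241, 0.326 and 0.399). In mural cells they did not all do so (-0.00675, 0.0957 and 0.292). The main treatment tests did not pair the libraries in any class, stromal cells included, and pairing entered only through the replicate block. On simulated counts with 200 genes changed by 2 on the log2 scale, 83.5% were recovered for mural against stromal cells over 6810 genes and 62.0% for bleomycin in mural cells over 3312 genes. Of the genes called, 5.11% and 6.77% were false. The changed genes excluded those with the lowest counts, no library effect was simulated, and the first case held the mural and stromal classes alone. Recovery of low members such as Kcnj8 cannot be read from it. The processing alternatives were DESeq2 1.42.0, no count filter, stricter cell and gate rules, removal of shared barcodes, at least 20 cells, a replicate block, muscle set apart and leaving out each library.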

Additional observations from a re-analysis of the deposited data

Results flagged for a closer look

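Higd1b levels in skin mural cells differed between PBS and bleomycin in opposite directions in the 2 genotypes in the full mural gate. It was 43.9 CPM higher after bleomycin than after PBS in the single SARATg pair (47.5 CPM in 28 cells and 91.3 CPM in 41 cells), whereas each SARAWT bleomycin library lay 44.7 to 118 CPM below a SARAWT PBS library. The difference between the genotypes was not tested, since the SARATg groups had 1 library each. Of the SARATg bleomycin mural cells, 65.9% held a muscle marker, and with muscle set apart Higd1b was 432 CPM there in 13 cells. In the same subset the SARAWT groups overlapped, at 136, 72.6 and 124 CPM after PBS and 44.5 and 148 after bleomycin, and their difference did not pass (log2 fold change -0.08, SE 0.60, edgeR adjusted p = 0.982). The SARAWT label was at odds with the mouse Zfyve9 level of PBS 3 (620 CPM) and with the human ZFYVE9 level of PBS 1 (845 CPM), PBS 2 (190), bleomycin 1 (89.3) and bleomycin 2 (115).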

How the results depend on the processing

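Counts of members called are given in the order used in the report, and the cause of each shift was not tested unless named. Except where given above, the share of all genes called was not set beside these counts, so they describe the members only. DESeq2 gave 3 for bleomycin in stromal cells and 2 in endothelial cells. Without the count filter the counts were 7, 6 and 7 for mural against stromal, Schwann and endothelial cells, 8 for bleomycin in mural, 3 in stromal and 3 in endothelial cells and 1 for aristolochic acid. With at least 4 gate markers mural against endothelial cells gave 5, and bleomycin gave 2 in mural, 0 in stromal and 1 in endothelial cells. With a gate margin of 2, bleomycin gave 2 in mural and 2 in stromal cells. With shared barcodes removed the counts were 5 against Schwann and 6 against endothelial cells and 0 for bleomycin in stromal cells. Sums of at least 20 cells gave 6 against Schwann and 6 against endothelial cells, 9 for bleomycin in mural and 3 in endothelial cells. Both of these settings left 2 PBS and 1 bleomycin library for SARAWT mural cells. The mural bleomycin count for sums of at least 20 cells therefore has no replicate on the bleomycin side, and no conclusion is drawn from it. No mural bleomycin count is given with shared barcodes removed. With muscle set apart the counts were 7 against stromal cells, 6 against endothelial cells and 0 for bleomycin in mural cells.

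The replicate block gave 5, 1, 0 and 0 calls for bleomycin in mural, stromal, Schwann and endothelial cells and 1 for aristolochic acid (Mcam, 2.38 on the log2 scale, edgeR adjusted p = 0.0455). Leaving out 1 library gave 3 to 4 calls against stromal cells, 2 to 4 against Schwann cells, 3 to 4 against endothelial cells in skin and in kidney, 11 to 14 between the other classes, 0 to 8 for bleomycin in mural cells (8 without bleomycin 2, 2 without PBS 2 or bleomycin 3), 0 to 3 in stromal and 0 to 1 in endothelial cells, and 0 to 1 for aristolochic acid.

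Directions that turned, as log2 fold changes, were these, and none passed the threshold. Mural over Schwann Mcam was 0.065 with a gate margin of 2 and 0.44 with muscle set apart, where Cspg4 was 0.22. Nes was -0.36 against endothelial cells with muscle set apart. Leaving out 1 library gave -0.14 (without SARATg PBS) to 0.87 for Mcam over endothelial cells, which was also below 0 without PBS 3. Bleomycin gave -0.031 for Schwann Mcam under the stricter cell filter and, leaving out 1 library, -0.015 to 0.20 for Schwann Mcam and -0.057 to 1.30 for Schwann Nes (both lowest without PBS 3) and -0.22 (without bleomycin 2) to 1.21 for stromal Vtn. It gave 0.11, 0.27 and 0.24 for mural Mcam, Rgs5 and Ndufa4l2 with muscle set apart. Aristolochic acid gave 0.074 for Nes with the replicate block and, leaving out 1 library, -0.39 to 0.16 for Nes (highest without vehicle 2) and -7.76 (without treated library 1) to 1.43 for Kcnj8. Aristolochic acid in kidney mural and stromal cells was not run, since fewer than 2 libraries a group held 10 cells.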
